A study of Homo sapiens and Mus musculus with 6 samples.

Results

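Chemokine and chemokine receptor genes are described here through the Promoter CHi-C interactions that CHiCAGO detected from their promoters. A gene was taken as a member where the symbol of a captured promoter fragment (the bait) was, ignoring case, CCL, CXCL, CCR, CXCR, XCL, XCR, CX3CL or CX3CR followed by digits and at most one letter. In GM12878, 35 of 15389 listed baits, with 36 such genes, gave 316 of 92929 interactions. In mESCs, 38 of 16265 listed baits, with 38 such genes, gave 163 of 101841 interactions. An interaction is counted here under the bait that called it. Where the baits at its ends called each other, it is therefore listed under each. This was so for 4262 pairs in the GM12878 list and 7691 in the mESC list. The human members comprised 23 ligands and 13 receptors, and the mouse members comprised 25 ligands and 13 receptors. The annotation of the same genome builds held 59 human and 57 mouse genes with such symbols. In GM12878, 3 more (CCL14, CCL15 and CCL19) were named only at the other end of an interaction, and 20 were named at neither end. In mESCs these numbers were 2 (Ccl20 and Cxcr6) and 17. The 20 human genes include CXCL8, which was listed in GM12878 under its older name IL8. Other genes absent from the lists may have lacked a bait, lacked an interaction or stood under another name. These cannot be told apart in the lists.

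GM12878 is a human lymphoblastoid line, that is, B cells immortalised by Epstein-Barr virus, and it was profiled in 3 biological replicates. The mESCs are mouse embryonic stem cells of the J1 (129S4/SvJae) line, which were grown on feeder fibroblasts that were then depleted, and they were profiled in 2 biological replicates. No treatment or genetic change separates the groups, so the comparison is one of species and cell type together. Promoter CHi-C ligates DNA ends that lie close together in fixed nuclei after HindIII digestion and then captures the fragments that carry promoters. Replicates of a cell type were pooled by the authors before calling. Each cell type is therefore a single set of calls, no test between cell types was possible, and the intervals below cover counting error only. By the paper's figures GM12878 had more captured read pairs in total than mESCs, and the numbers of interactions below were not adjusted for depth. The paper left the first GM12878 replicate out of its weight estimation, likely because of poorer quality, but that replicate is in the pooled calls. Contacts and not RNA were measured, so no marker could check the cell types and nothing here gives the expression of a gene. mESC Hi-C, from 1 library, was set beside the mESC calls. The paper describes it as pre-capture data, so it cannot be taken as independent of the Promoter CHi-C.

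Chemokines are small secreted proteins that attract leukocytes, and their receptors are G protein-coupled receptors on the surface of the cells they attract. In lymphoid tissue, CXCR5 and its ligand CXCL13 lead B cells into follicles, CCR7 and its ligands CCL19 and CCL21 lead cells into T cell zones, and CXCR4 and its ligand CXCL12 hold precursors in the bone marrow. Inflammatory ligands recruit monocytes and T cells, for example CCL3 and CCL5 through CCR1, CCL2 through CCR2, and CXCL9 to CXCL11 through CXCR3. Many of these genes arose by tandem duplication and still lie side by side, and CCCTC-binding factor (CTCF) is known to anchor chromatin loops elsewhere in the genome.

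The sequences that follow show what stands at some of these promoters and called fragments. The first 4, chosen as examples of each motif searched, are the 100 bases before the annotated start of human genes, from RefSeq promoter windows (GRCh38.p14) that were found unchanged inside the hg19 baits. Capitals mark a TATA run (TATAAA), a kappaB-like run (GGG and TTTCC with any 2 bases between them) or a STAT-like run (TTCNNNGAA), searched on both strands. The CXCR4 stretch lies at chr2:136875720-136875819 (hg19, minus strand) and its capitals hold overlapping TATA runs on both strands. The CCL20 stretch lies at chr2:228678458-228678557 (plus), with a kappaB-like run on its opposite strand followed by a TATA run. The CXCL1 stretch, with a kappaB-like run, lies at chr4:74735010-74735109 (plus). The CCL8 stretch, with a STAT-like run followed by a TATA run, lies at chr17:32646354-32646453 (plus).
CXCR4: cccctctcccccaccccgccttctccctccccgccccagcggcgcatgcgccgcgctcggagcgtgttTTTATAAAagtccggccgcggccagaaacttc
CCL20: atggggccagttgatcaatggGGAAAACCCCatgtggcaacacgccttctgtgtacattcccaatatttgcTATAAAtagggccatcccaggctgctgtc
CXCL1: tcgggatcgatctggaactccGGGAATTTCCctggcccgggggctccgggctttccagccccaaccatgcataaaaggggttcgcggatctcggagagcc
CCL8: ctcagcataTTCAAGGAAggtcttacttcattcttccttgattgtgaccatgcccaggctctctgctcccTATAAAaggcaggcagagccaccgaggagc

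Promoter windows of 300 bases (250 before to 50 after the start) were held for 26 of the 36 human genes, and 21 of these were found in the hg19 bait itself. A TATA run was in 7 of 26 windows (26.9%, Wilson 95% interval 13.7 to 46.1), beside 11.5% of all 35116 human windows. A kappaB-like run was in 2 of 26 (7.69%, 2.14 to 24.1), beside 1.91% of all windows, and these were CCL20 and CXCL1. A STAT-like run was in 4 of 26 (15.4%, 6.15 to 33.5), beside 7.66% of all windows. Of the 7 windows with a TATA run, 6 belonged to ligands and 1 to a receptor, CXCR4. All these motifs are short enough to occur without any factor, and a match is a description of letters only.

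The next sequences are 60-base windows around CTCF-like runs (CCA, AG and GGC, each separated by any 2 bases, on either strand and in capitals) inside called other-end fragments. They are shown for the human and mouse fragments of CXCL12 and CXCR4 that were most alike, and for fragments that several chemokine promoters shared or that had the highest score of their gene. Human CXCL12 lies at chr10:44167245-44167304 (hg19, plus), in an exon of a transcript outside protein-coding genes, and mouse Cxcl12 at chr6:117775591-117775650 (mm9, minus), outside exons. Human CXCR4 lies at chr2:137136497-137136556 (hg19, minus) and mouse Cxcr4 at chr1:130720963-130721022 (mm9, minus), both outside exons. The window shared by CXCR6, CCR1 and CCR2 is chr3:46120449-46120508 (hg19, minus). The CCL1 window is chr17:32527081-32527140 (hg19, plus). The window shared by Cx3cr1 and Ccr8 is chr9:119937109-119937168 (mm9, plus), the one shared by Ccl9, Ccl6 and Ccl3 is chr11:83552915-83552974 (mm9, minus), and that of Ccr7 is chr11:98836833-98836892 (mm9, plus).
Human CXCL12: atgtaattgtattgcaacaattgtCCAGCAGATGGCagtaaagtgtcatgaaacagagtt
Mouse Cxcl12: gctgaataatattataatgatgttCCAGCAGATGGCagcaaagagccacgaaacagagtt
Human CXCR4: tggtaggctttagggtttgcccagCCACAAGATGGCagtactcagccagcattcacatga
Mouse Cxcr4: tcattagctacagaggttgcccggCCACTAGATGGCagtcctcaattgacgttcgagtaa
Human CXCR6, CCR1, CCR2: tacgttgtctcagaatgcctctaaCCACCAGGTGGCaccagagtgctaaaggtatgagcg
Human CCL1: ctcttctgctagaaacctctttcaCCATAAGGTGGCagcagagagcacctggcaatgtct
Mouse Cx3cr1, Ccr8: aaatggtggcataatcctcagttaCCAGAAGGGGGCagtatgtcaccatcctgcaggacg
Mouse Ccl9, Ccl6, Ccl3: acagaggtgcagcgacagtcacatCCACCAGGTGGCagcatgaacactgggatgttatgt
Mouse Ccr7: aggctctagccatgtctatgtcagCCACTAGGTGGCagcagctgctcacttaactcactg

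In GM12878, chemokine baits had a mean of 9.03 interactions, against 6.04 over all listed baits, and a median of 4 against 3. The mean rested on a few promoters. Without CCL24 it was 7.91, and without CCL24, CCL26 and CX3CR1 it was 6.34. At least 10 interactions were listed for 10 of 35 chemokine baits (28.6%), where 17.6% of all GM12878 baits had as many. Receptor baits reached that number more often, with 6 of 13 (CX3CR1, CXCR5, CCR6, CCR1, CCR2 and CCR7) against 4 of 22 ligand baits (CCL24, CCL26, CXCL12 and CCL28). The median was 7 interactions for receptors and 2.5 for ligands.

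In mESCs the same gene families had fewer interactions than the average promoter. The mean was 4.29 against 6.26 over all listed baits, with a median of 3 in both. Only Cxcl16 and Cxcl17, both ligands, had at least 10 interactions, or 2 of 38 baits (5.26%), where 18.9% of all mESC baits did. None of the 13 mouse receptor baits had 10, and so few baits would allow a share of up to 23.1%. Of the receptors just named, Ccr2 and Ccr7 had 5 interactions in mESCs, Ccr6 had 3 and Cx3cr1 had 1, while Cxcr5 and Ccr1 were not listed as baits.

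**Figure D1:**
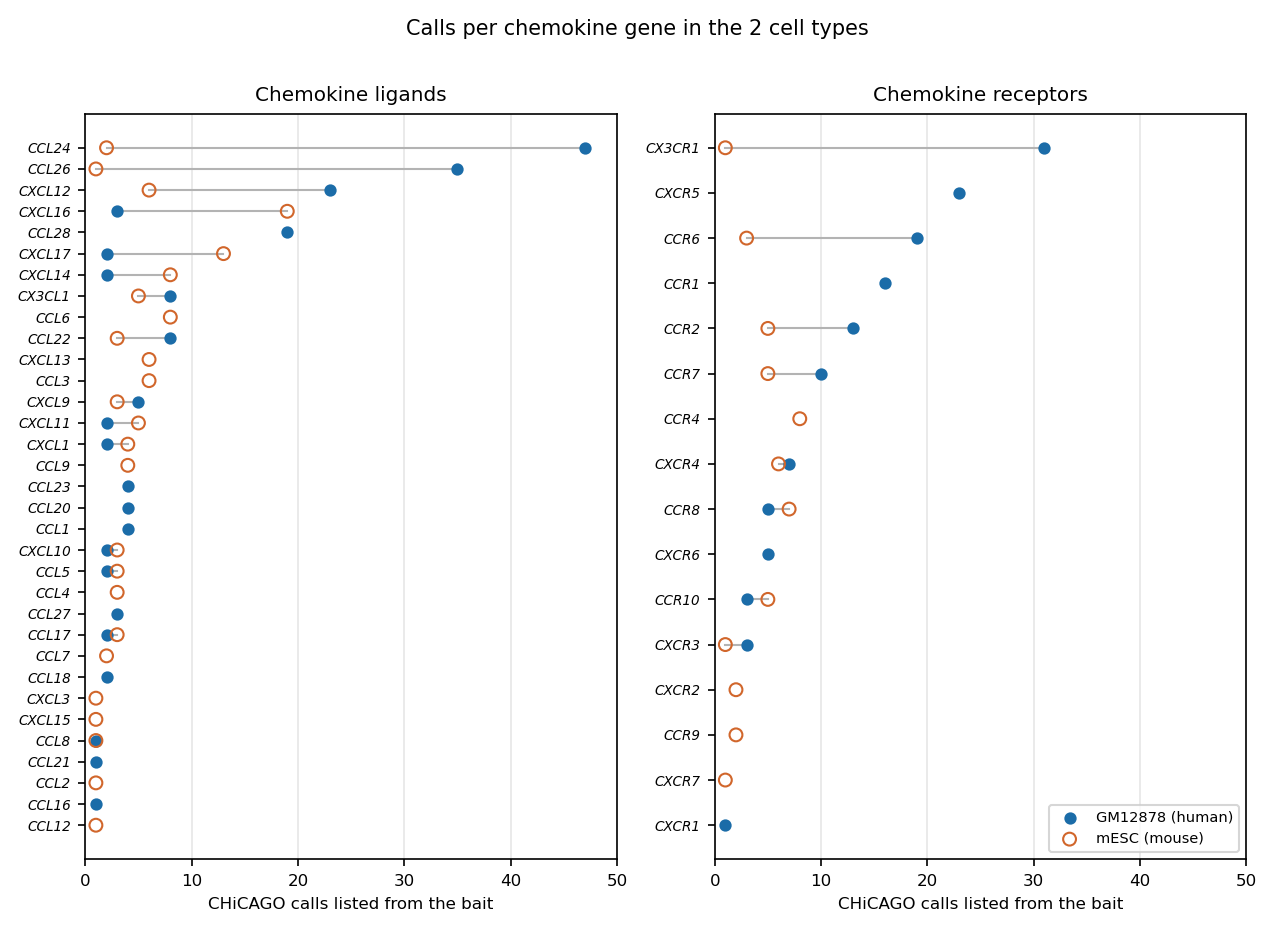
Number of interactions listed from the bait of each chemokine ligand (left) and receptor (right), filled for GM12878 and open for mESCs, with mouse genes under the human name and a line joining genes listed in both, where 1 receptor is not shown. CCL24, CCL26, CXCL12, CCL28, CX3CR1, CXCR5 and CCR6 stand at 19 to 47 in GM12878, whereas Cxcl16 and Cxcl17, at 19 and 13, lead in mESCs.

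Long interactions were rarer among chemokine genes than on average in both cell types. The median distance between fragment midpoints was 150 kb in GM12878 (95% interval 134 to 163), against 174 kb over all interactions, and 126 kb in mESCs, against 139 kb, which lies within the interval of 104 to 150 kb. Interactions over 300 kb made up 51 of 316 in GM12878 (16.1%, 12.5 to 20.6), against 25.4% of all, and 17 of 163 in mESCs (10.4%, 6.61 to 16.1), against 21.6% of all. Human ligands and receptors differed in this share, with 44 of 174 (25.3%, 19.4 to 32.2) for ligands and 7 of 142 (4.93%, 2.41 to 9.83) for receptors. CXCL12 alone gave 23 of the 44, and without it the ligand share was 21 of 151 (13.9%, 9.28 to 20.3). Neighbouring fragments of a promoter are not independent, so these intervals are too narrow for a comparison of genes. No chemokine promoter had a trans-chromosomal interaction, which allows a share of up to 0.949% in GM12878 and 1.84% in mESCs. The share over all baits was 0.310% and 0.569%. From chemokine baits, 1 interaction per cell type exceeded 1 Mb, CCR7 at 1118 kb and Cxcl14 with Spock1 at 1611 kb. In mESCs, the baits of Gm14206 and Hap1 also called Ccr7, at 1136 and 1199 kb.

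Of the interactions called from human chemokine baits, a smaller share than average had a bait at the other end. This share leaves out calls made in the other direction. Baits of other genes called a chemokine bait 51 times in GM12878 and 46 times in mESCs. The gap is therefore one of calls from these baits, and not of all their contacts with promoters. In GM12878, 40 of 316 interactions were bait-to-bait (12.7%, 9.44 to 16.8), against 29.4% of all. The share stayed between 13.8% and 15.3% when the 1, 2 or 3 baits with most interactions were left out. In mESCs, 59 of 163 were bait-to-bait (36.2%, 29.2 to 43.8), against 36.3% of all. Every interaction of Cxcl14 (8), Ccr8 (7), Ccl3 (6) and Ccl9 (4), among others, had a bait at the other end. The bait-to-bait shares above, those of all baits included, count mutually called pairs under each bait. With each pair listed once, the chemokine shares were 12.1% in GM12878 and 35.8% in mESCs. The shares of all baits were not recomputed in that way. Scores of at least 10 were listed for 40 of 316 (12.7%) in GM12878, against 16.3% of all, and for 24 of 163 (14.7%) in mESCs, against 16.9%. Median read counts, each a rounded weighted mean over replicates, were 15.5 and 13, against 16 and 13 over all interactions.

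**Figure D2:**
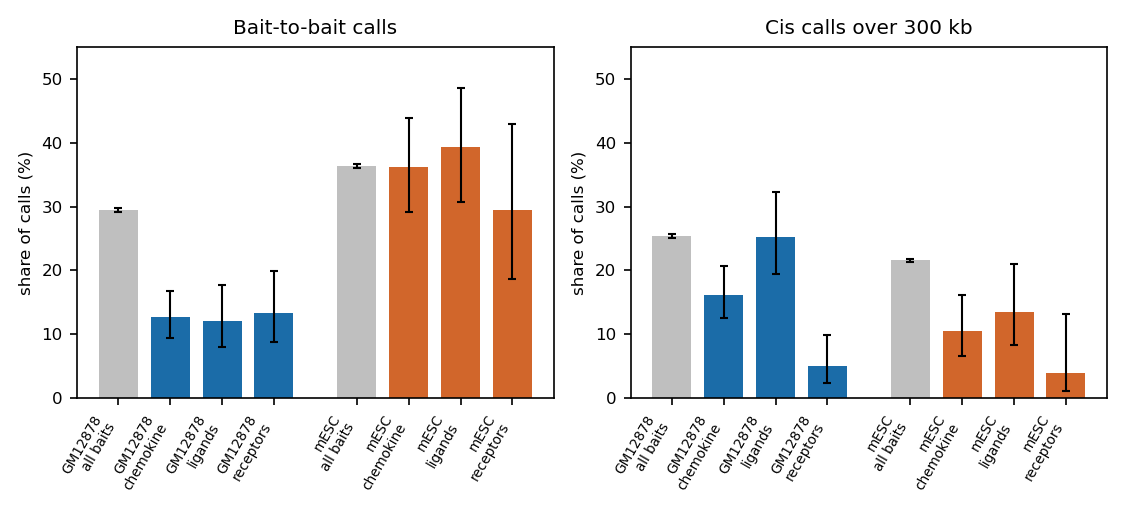
Share of interactions that were bait-to-bait (left) and of cis-chromosomal interactions over 300 kb (right), in percent with Wilson 95% intervals, for all baits (grey) and for chemokine baits, ligands and receptors in GM12878 (blue) and mESCs (orange). The GM12878 chemokine bait-to-bait share of 12.7% lies below the 29.4% of all baits, and the GM12878 receptor share over 300 kb of 4.93% is the lowest of the GM12878 bars.

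CXCR4, the receptor for CXCL12, was contacted from both sides over similar distances in both species. The human bait, chr2:136869013-136876153, had 7 interactions on 7 to 10 reads each. Of these, 4 lay downstream of the gene at 195 to 277 kb and 3 lay upstream at 210 to 264 kb. The farthest downstream fragment was the bait of LCT, the lactase gene (277 kb, score 6.22). In mESCs, Cxcr4 had 6 interactions on 8 to 17 reads. Of these, 4 lay upstream at 219 to 238 kb, with scores of 5.28 to 10.99. No fragment called from the CXCR4 bait lay closer than 167 kb in the mouse or 195 kb in the human. In the other direction, the DARS bait called human CXCR4 from 127 kb downstream (7 reads, 6.05). The mouse Dars bait was contacted at 177 kb downstream on 17 reads (score 10.02, and 21.59 when called from Dars).

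CXCR5, the follicular homing receptor of B cells, had 23 interactions in GM12878 on 14 to 74 reads, and 20 of them lay upstream, out to 190 kb. These covered DDX6, an RNA helicase gene, whose bait was contacted at 96.3 kb on 37 reads (score 7.58, and 10.45 when called from DDX6). The highest score was 9.40 at 67.6 kb upstream, outside protein-coding genes. Downstream, the bait reached the start of FOXR1 and UPK2 at 80.3 kb on 34 reads. The baits of CCDC84 at 124 kb (14 reads, 6.56) and of CBL and CCDC153 at 316 kb (9 reads, 7.41) contacted CXCR5 from downstream as well. None of the 23 interactions called from CXCR5 had a score of 10. The bait also carries RP11-158I9.5, so these contacts cannot be assigned to CXCR5 alone.

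CCR6, the receptor for CCL20 on mature B cells, was also contacted mostly upstream. In GM12878, 17 of its 19 interactions lay upstream, on 9 to 68 reads. They passed over CEP43 (listed as FGFR1OP), a centrosomal protein gene, whose bait was contacted at 115 kb on 46 reads (score 9.0), and reached the bait of RNASET2, a ribonuclease gene, at 152 kb on 33 reads (score 8.95). Further fragments lay in RPS6KA2, a kinase gene, out to 334 kb, and 1 in SFT2D1 at 773 kb. The highest score, 11.83, belonged to a CEP43 exon fragment at 67.5 kb. In mESCs, Ccr6 had 3 interactions. One was intragenic at 4.43 kb on 91 reads (score 10.46), 1 lay in Fgfr1op at 47.0 kb, and 1 reached T, the gene of the mesodermal transcription factor brachyury, at 199 kb on 10 reads (score 5.75).

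CCR7, which guides lymphocytes and dendritic cells into lymph nodes, had 10 interactions in GM12878. By far the highest score was 17.26, with the bait of TOP2A, the topoisomerase II alpha gene, at 153 kb downstream on 58 reads. Of the others, 2 lay in TOP2A exons, 1 lay in IGFBP4 at 122 kb, and 4 formed a run upstream at 17.7 to 35.4 kb on 34 to 48 reads with scores of 6.72 to 8.27. In mESCs all 5 interactions called from Ccr7 lay downstream at 115 to 184 kb. The bait of Igfbp4, an insulin-like growth factor binding protein gene, was contacted on 35 reads (score 6.46, and 10.32 from Igfbp4). The highest score called from Ccr7 was 9.42 in an exon fragment of Rara, the retinoic acid receptor alpha gene. The Krt222 bait called Ccr7 from upstream at 86.1 kb (12 reads, 12.42). Gm14206 (1136 kb, 6.26) and Hap1 (1199 kb, 5.97) did so too, and further baits called Ccr7 from downstream. Neither the proximal upstream run nor a Top2a contact was listed for mouse Ccr7.

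CX3CR1, the fractalkine receptor of monocytes and microglia, had more interactions than any other receptor. In GM12878 it had 31, on 9 to 53 reads, and 2.10% of all baits had at least as many. All but 2 lay downstream at 7.16 to 221 kb, in a nearly continuous series over XIRP1, CSRNP1, TTC21A with GORASP1, and WDR48. The highest score was 18.05 with the shared GORASP1 and TTC21A bait at 174 kb on 30 reads, and XIRP1, a muscle actin-binding protein gene, gave 3 fragments with scores of 10.26 to 14.28. The neighbouring CCR8, the CCL1 receptor, had only 5 interactions, on 9 to 47 reads, although its bait lies close to that of CX3CR1. These 5 lay on the same side of the chromosome, over the XIRP1 and WDR48 fragments among others, and 2 of the 34 ends of this pair of genes were shared.

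In mESCs the balance between the neighbours was the opposite, with 7 interactions for Ccr8 and 1 for Cx3cr1. All 8 were bait-to-bait. Both promoters reached the Xirp1 bait, Ccr8 at 66.7 kb with a score of 44.01 on 32 reads, the highest score of any chemokine interaction in either cell type, and Cx3cr1 at 45.3 kb with 6.41 on 36 reads. Ccr8 also reached Csrnp1 (score 10.08), Gorasp1 (7.13), the sodium channel gene Scn11a (6.94), Cx3cr1 (7.16), Slc25a38 (7.62) and Eif1b (6.62), on 4 to 15 reads. The score is computed against the background that CHiCAGO estimates for each bait and distance, so similar reads can carry different scores.

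**Figure D3:**
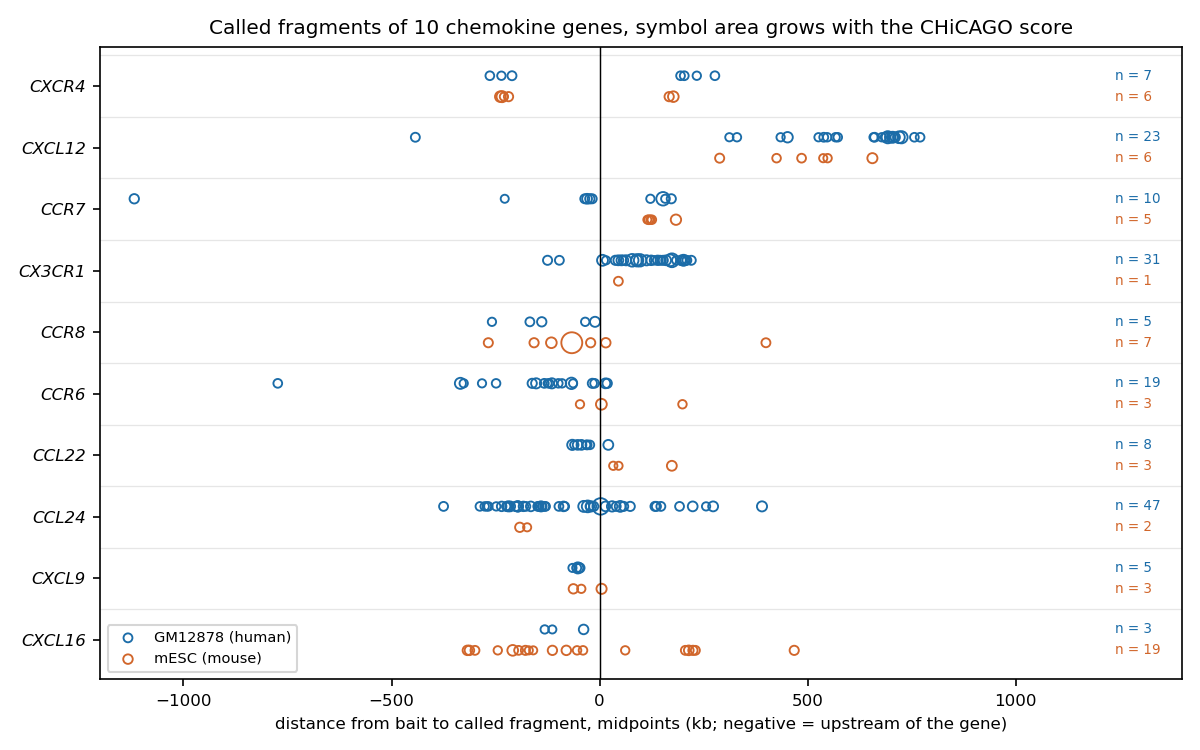
Position of each called fragment relative to its bait for 10 chemokine genes, in kb between midpoints with negative values upstream of the gene, for GM12878 (blue, upper row) and mESCs (orange, lower row), where the area of a symbol grows with the score and n is the number of interactions. CXCL12 fragments lie 289 to 771 kb downstream in both species apart from 1 upstream in GM12878, and CXCR4 fragments lie on both sides beyond 167 kb.

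CXCR6, CCR1 and CCR2 lie in the human receptor cluster on chromosome 3, with 424 kb from the CXCR6 bait to the CCR2 bait. These genes serve monocytes and effector T cells. Together these 3 baits had 34 interactions with 26 distinct fragments, of which 7 (26.9%) were called from more than 1 of them. This share was not computed over other groups of baits, so it has no background. A stretch of 31.5 kb between the CXCR6 and CCR1 baits, chr3:46118042-46149579, held 4 of the 7, and these received 9 interactions, 1 from CXCR6, 4 from CCR1 and 4 from CCR2. It covers the start and exon of XCR1, the receptor of cross-presenting dendritic cells, and the region beside it. XCR1 itself was named at neither end of any interaction. The fragment with the CTCF-like window printed above scored 21.31 from CXCR6 (30 reads, 139 kb), 9.41 from CCR1 (23 reads) and 6.10 from CCR2 (19 reads).

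These receptor promoters also contacted each other, and all 3 possible pairs were called. CCR1 and CCR2 were called on 39 reads at 146 kb (score 8.15), and CXCR6 reached CCR2 on 17 reads at 416 kb (8.01) and CCR1 on 14 reads at 270 kb (5.05). CCR2 also reached intron fragments of CCR3, the eotaxin receptor, which was not listed as a bait. These receptors are similar in sequence, and whether reads were shared between them was not tested.

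**Figure D4:**
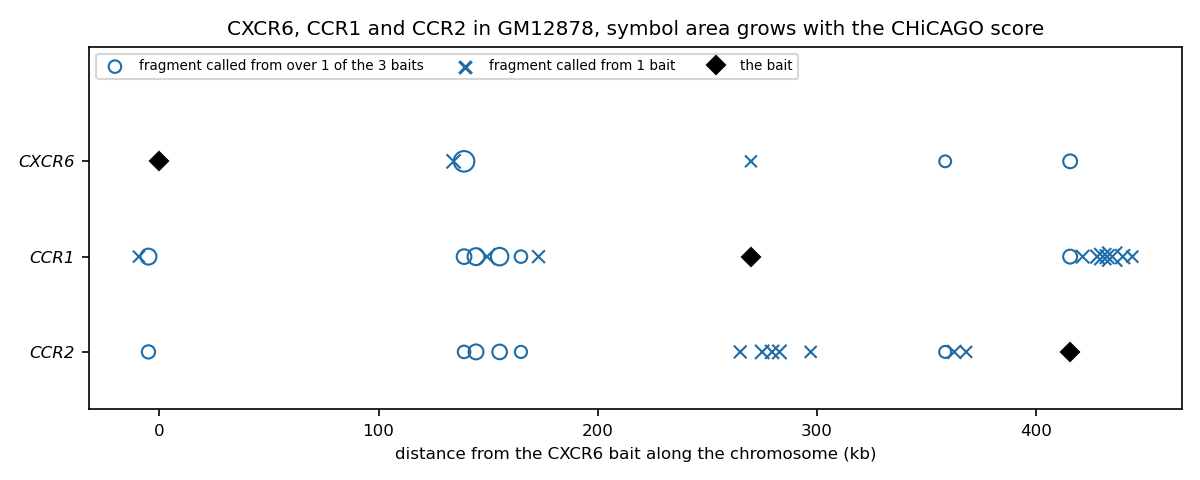
Fragments called from the baits of CXCR6, CCR1 and CCR2 in GM12878, in kb from the CXCR6 bait along the chromosome, with circles for fragments called from more than 1 of the baits, crosses for fragments called from 1 bait, and diamonds for the baits. Circles of all 3 genes line up at 139 kb, at the start of a stretch where 4 fragments received 9 interactions.

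On mouse chromosome 9, Ccr9 had 2 interactions and Ccr2 had 5, and they were not called with each other. They too had a fragment in common. The unbaited fragment chr9:123843297-123844848, outside protein-coding genes, was called from Ccr9 on 15 reads (score 9.16) and from Ccr2 on 15 reads (17.88). Ccr2 also reached an exon fragment of Ccr3 on 9 reads (5.11). The highest score of Ccr2, 22.70, was the short-range contact of Ccr2 at 4.89 kb within its own gene, on 114 reads.

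Other receptors had fewer interactions. Of the 35 human baits, 6 also carry other genes, and a contact of such a bait cannot be assigned to the chemokine gene alone. These are the baits of CXCR5, CCR8, CCR10, CXCL14, CXCL16 and CCL27. The bait of CCR10, the receptor for CCL27 and CCL28, also carries CNTNAP1 and PLEKHH3. It scored 20.47 with the PSMC3IP bait at 104 kb on 32 reads and reached TUBG1, a gamma-tubulin gene, at 68.4 kb (6.44). In mESCs, Ccr10 reached Tubg1 at 48.6 kb (5.06) and Coasy at 91.7 kb (7.0). Mouse Ccr4, the receptor for CCL17 and CCL22, had 8 interactions and a score of 20.48 at 86.5 kb upstream on 25 reads, outside protein-coding genes. CXCR1, a neutrophil receptor, had a single interaction at 3.88 kb on 73 reads (score 6.33).

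Among ligands, CXCL12 stood apart by distance. This stromal ligand of CXCR4 had 23 interactions from its own bait in GM12878, every one over 300 kb, and none with a baited fragment. All but 1 lay downstream at 312 to 771 kb, and 22 of the 23 fragments lay outside protein-coding genes. Read counts were low and even, at 10 to 16, and the highest scores were 13.68 at 726 kb, 13.62 at 693 kb and 12.61 at 720 kb. A group of 8 fragments from 687 to 726 kb held these. Their nearest protein-coding start was that of the zinc finger gene ZNF32, whose own bait contacted CXCL12 at 736 kb on 10 reads (score 7.85). Further baits called CXCL12, among them LINC00619 at 542 kb (13 reads, 8.78) and AL512640.1 at 353 kb (13 reads, 8.6). In mESCs, Cxcl12 had 6 interactions, all downstream at 289 to 656 kb, on 6 to 9 reads, and 1 of them was with a bait, that of Gm7292. The highest score was 8.86 at 656 kb. Zfp637, a zinc finger gene, contacted Cxcl12 from its own bait at 673 kb on 6 reads (score 5.06).

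The fragments of CXCL12 and CXCR4 were also those with the most similar sequence windows between species. Over 130 pairs of CTCF-like windows of the same gene in human and mouse, the median was 21 identical bases of 60. The CXCL12 pair printed above had 44 of 60 (73.3%), with 32 of 48 outside the run, and the CXCR4 pair had 39 of 60 (65.0%), with 28 of 48 outside the run. The next pair had 33, and the highest among 5414 pairs of different genes was 37. The human CXCL12 window lay in a fragment called at 711 kb (score 7.41, 11 reads) and the mouse window in the fragment called at 656 kb (score 8.86). The CXCR4 windows lay upstream in fragments called at 264 kb in the human (score 6.15, 7 reads) and 234 kb in the mouse (score 10.99, 13 reads).

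CCL24 and CCL26, eotaxins that attract eosinophils through CCR3, had the most interactions of all chemokine genes in GM12878. CCL24 had 47 on 8 to 125 reads, a number that 0.630% of all baits reached, and CCL26 had 35 on 7 to 41 reads. The baits lie 30.2 kb apart on chromosome 7 and were called with each other from both ends on 41 reads (scores of 9.36 and 9.15). Between them they contacted 57 fragments, of which 25 (43.9%) were common to both. Over all 1616 GM12878 pairs of baits at most 50 kb apart with at least 10 interactions each, the median share was 28.7% (quartiles 19.3 and 40.0), and 18.4% of pairs had a share at or above that of the eotaxins. The fragments lay over HIP1 on one side and RHBDD2, POR, STYXL1 and MDH2 on the other, out to SRRM3 at 375 kb from CCL24 (13 reads, 6.57) and 405 kb from CCL26 (14 reads, 8.58). POR encodes the electron donor of cytochrome P450 enzymes, and MDH2 a mitochondrial malate dehydrogenase. The highest score of CCL24 was 26.60 at 2.78 kb on 125 reads, and that of CCL26 was 12.59 in POR at 117 kb on 18 reads.

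In mESCs the same genes had few interactions. Ccl24 had 2 interactions, both in Styxl1 exon fragments, at 174 kb on 10 reads (score 5.16) and 192 kb on 12 reads (7.35), and Ccl26 had 1, with Srrm3 at 247 kb on 7 reads (5.94). The few mouse contacts thus fell at genes that the human promoters also contacted, on the same, upstream side.

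CCL28, a mucosal ligand of CCR10 and CCR3, had 19 interactions from its own bait in GM12878, none bait-to-bait, and 15 of them lay downstream. The nearest, in its own intron at 3.38 kb, had 93 reads (score 7.34). Fragments in NIM1K followed at 172 to 192 kb and fragments in the zinc finger gene ZNF131 from 260 kb on, on 10 to 18 reads. The highest score called from CCL28 was 9.30. In the other direction, CCL28 was called from the baits of CTD-2035E11.3 (9 reads, 16.46), C5orf34 (11 reads, 15.91) and NIM1K (15 reads, 7.35). CCL1, the ligand of CCR8, had 4 interactions with 4 neighbouring fragments at 159 to 170 kb downstream, outside protein-coding genes. The fragment chr17:32524705-32527452 scored 30.17 on 44 reads, the highest human chemokine score, and its neighbours scored 9.02 to 12.55 on 20 to 25 reads. Its CTCF-like window is printed above.

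CXCL9, CXCL10 and CXCL11, interferon-induced ligands of CXCR3, form a cluster on human chromosome 4 with 9 interactions. CXCL9 gave 5 of these, all upstream at 47.1 to 65.1 kb over ART3, with scores of 5.20 to 11.04. One ART3 exon fragment was shared by CXCL9 (22 reads, 6.88) and CXCL10 (23 reads, 5.61), and CXCL11 reached the baits of ART3 (6.82) and SDAD1 (5.27). The mouse cluster on chromosome 5 had 11 interactions and touched the same neighbours. Cxcl9 and Cxcl11 shared the fragment with an Art3 start (18 and 20 reads, scores of 7.53 and 6.26), and Cxcl11 reached Sdad1 with a score of 15.34 on 33 reads. No pair of the 3 promoters was called with each other in either species.

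CCL17, CCL22 and CX3CL1, the first pair being ligands of CCR4 and the third the ligand of CX3CR1, lie together on human chromosome 16. CCL22 and CX3CL1 share 1 bait, whose 8 interactions were all short, at 21.1 to 65.4 kb on 23 to 45 reads with scores of 5.29 to 9.13. CCL17 reached this bait on 11 reads (7.87) and CNGB1 at 562 kb on 5 reads (7.30). The mouse genes on chromosome 8 had separate baits and 11 interactions with 8 fragments, 3 of them shared, a count without a background. Each pair of the 3 mouse genes had 1 fragment in common, namely an exon fragment of Cx3cl1 for Ccl22 and Cx3cl1, the Ccdc102a bait for Ccl22 and Ccl17, and an unbaited upstream fragment for Cx3cl1 and Ccl17 (20 and 12 reads, scores of 11.22 and 9.28).

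CCL19, a ligand of CCR7, gave no interaction from its own bait in GM12878 but was reached from 4 others. These were the baits of CCL27, a skin ligand (39 reads, 12.03), CCL21 (51 reads, 6.98), FAM205A at 30.3 kb (29 reads, 11.12) and KIF24 with NUDT2 at 380 kb (6 reads, 8.16). The contact with CCL19 was the only interaction of CCL21. CCL20 had 4 interactions in GM12878, at 12.9 kb on 66 reads (7.07) and at 243, 393 and 806 kb on 8 to 14 reads (5.05 to 5.11). CXCL13 was not listed in GM12878. In mESCs, Cxcl13 had 6 interactions, of which 4 lay within 11.1 kb of its bait on 19 to 67 reads, with a highest score of 10.40, and Ccl19 and Ccl21 genes were not listed.

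Inflammatory CC ligands formed clusters in both species. On human chromosome 17, CCL5, CCL16, CCL23 and CCL18 had 9 interactions in all, and no fragment was shared between them. CCL23 reached CCL18 (11 reads, 7.75) and the shared CCL14 and CCL15 bait (10 reads, 5.14), with a highest score of 12.36 at 63.4 kb. Human CCL8, a monocyte ligand, had a single interaction, with the bait of the ion channel gene ASIC2 at 161 kb on 13 reads (5.87). Human CXCL1, a neutrophil ligand, reached the baits of PF4V1 at 13.4 kb on 14 reads (6.37) and of MTHFD2L at 244 kb on 8 reads (10.63). On mouse chromosome 11, Ccl5, Ccl9, Ccl6, Ccl3 and Ccl4 had 24 interactions with 15 fragments, 6 of which (40.0%) were shared. That share too has no background over other groups of baits. The Expi bait was called from Ccl9, Ccl6, Ccl3 and Ccl4, on 12, 24, 18 and 25 reads. The fragment chr11:83552377-83561485, with the CTCF-like window printed above, was called from Ccl9, Ccl6 and Ccl3 on 10, 22 and 8 reads. Ccl3 and Ccl4, which encode the macrophage inflammatory proteins, were called with each other at 9.37 kb on 81 reads, with scores of 29.74 from Ccl3 and 6.39 from Ccl4. Ccl3 also reached Ccl6 on 18 reads (12.46).

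The remaining mouse clusters were thin. Ccl2, Ccl7, Ccl12 and Ccl8 on chromosome 11 had 5 interactions, with Ccl8 reaching Ccl12 at 14.4 kb on 53 reads (5.29) and Ccl2 and Ccl7 each reaching Ccl1. The neutrophil ligands Cxcl3, Cxcl15 and Cxcl1 on chromosome 5 had 6, of which 4 were those of Cxcl1 at 214 to 236 kb upstream on 9 to 11 reads. Clusters of at least 3 baits within 500 kb of each other numbered 3 in GM12878 and 6 in mESCs.

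The mouse ligands with most interactions were not those of the human. Cxcl16, a membrane-bound ligand of CXCR6, had 19 in mESCs on 9 to 30 reads, 11 of them bait-to-bait, including Spag7 (10.16), Pld2 (7.71), Gp1ba (6.95) and Alox12 (6.68). In the other direction, 11 baits of other genes called Cxcl16. Human CXCL16, whose bait also carries ZMYND15, had 3. Baits of other genes called human CXCL16 too, among them VMO1 (30 reads, 11.1), CHRNE with MINK1 (16 reads, 7.94) and GP1BA (14 reads, 9.14). The baits of Vmo1, Chrne and Gp1ba were also among those that called mouse Cxcl16. Cxcl17, a mucosal ligand, had 13, among them the bait of Tgfb1, the transforming growth factor beta 1 gene, at 275 kb on 12 reads (10.03), and 3 fragments at 182 to 188 kb with scores of 6.79 to 12.01. Cxcl14 had 8, with Neurog1, a neuronal transcription factor gene, at 46.5 kb on 34 reads (19.36) and Pitx1, a hindlimb transcription factor gene, at 465 kb on 11 reads (15.22). Human CXCL17 and CXCL14 had 2 each.

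Promoters of chemokine genes were called with each other in 10 pairs in GM12878 and 5 in mESCs. The human pairs included those of CXCR6, CCR1 and CCR2 and 6 ligand pairs. The mouse pairs were Ccl8 with Ccl12, Ccl9 with Ccl6, Ccl3 with Ccl6, Ccl3 with Ccl4, and Ccr8 with Cx3cr1 (12 reads, 7.16). In both species every such pair lay within 416 kb. No ligand was called with its own receptor. This says nothing on ligands and receptors where they lie on different chromosomes, as CXCL12 and CXCR4 do, since no chemokine bait had a trans-chromosomal interaction. Of the bait-to-bait pairs with a chemokine bait at either end, 11 of 80 were called from both ends in GM12878, against 18.5% of all pairs, and 15 of 90 in mESCs, against 26.2%. Interactions from any bait that reached a chemokine bait numbered 63 in GM12878, 51 of them from other genes, and 52 in mESCs, 46 of them from other genes.

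By symbol, 24 chemokine genes had interactions in both cell types, 12 in GM12878 only and 14 in mESCs only. The 14 include Cxcr7, which under its human name ACKR3 had 2 interactions in GM12878. Some symbols may lack a counterpart of that name in the other species, so these counts also depend on naming. Over all genes, 20461 symbols were listed in GM12878 and 16133 in mESCs, with 7880 in both. Of the 24, 13 had more in GM12878, 10 had more in mESCs and 1 had equal numbers, where 43.5% of the 7880 genes listed in both had more in GM12878. Summed over the 24, the interactions came to 233 in GM12878 and 117 in mESCs. CCL22 and CX3CL1 share a human bait, so its 8 interactions count for both genes among the 13. The median ratio per gene was 1.18, against 1.00 for all such genes. The larger human sum came from CCL24, CCL26, CX3CR1, CXCL12 and CCR6, whereas Cxcl16, Cxcl17 and Cxcl14 led in the mouse. Among baited other ends, 3 of the 24 (12.5%, 4.34 to 31.0) shared a gene name between the species, against 23.2% of all 7880. With unbaited fragments and their annotated genes included, 14 of the 24 shared a name, in 16 pairs of genes, but this wider count was not made over all genes and has no background. These included STYXL1 for CCL24, SRRM3 for CCL26, ART3 for CXCL9, CXCL10 and CXCL11, SDAD1 for CXCL11, SLC25A48 for CXCL14, MINK1 for CXCL16, CCR1 and CCR3 for CCR2, FGFR1OP for CCR6, IGFBP4 for CCR7, TUBG1 for CCR10 and XIRP1 for CCR8 and CX3CR1. Genes renamed between the annotations are not in this count.

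Other ends without a bait often lay outside protein-coding genes. In GM12878, 107 of 237 did (45.1%, 38.9 to 51.5), against 35.5% of all 40159 such ends, and 31 carried a transcription start, 39 an exon and 60 only an intron. Without the CXCL12 ends the GM12878 share was 85 of 214 (39.7%, 33.4 to 46.4), an interval that holds the share of all ends. In mESCs, 51 of 96 lay outside protein-coding genes (53.1%, 43.2 to 62.8), against 39.9% of all 35483, and 10 lay in introns (10.4%), against 20.4%. A CTCF-like run was in 39 of 237 human ends (16.5%, 12.3 to 21.7), against 16.3% of all ends and 16.4% over the same classes of length. In mESCs it was in 31 of 96 (32.3%, 23.8 to 42.2), against 35.3% and 35.6%. In both cell types the interval holds the share of all ends.

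In the mouse, many of these runs sat in repeated sequence. Of the 84 mouse windows of 60 bases in called fragments, 33 (39.3%) had at least 45 bases identical to another window of the set, whereas none of the 66 human windows did.

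mESC Hi-C gave a coarser view of the same contacts. Of the 162 mouse chemokine interactions under 1 Mb, 20 (12.3%, 8.14 to 18.3) fell in a 25-kb bin pair that HOMER called at an FDR under 0.05, against 11.6% of all such mESC interactions. The upstream contacts of Cxcr4 at 219 to 234 kb shared 1 bin pair, with 25 Hi-C read pairs where 6.2 were expected. The 4 upstream contacts of Ccr4 shared 1 bin pair, with 32 read pairs against 7.09 expected. The Xirp1 contacts of Ccr8 and Cx3cr1 fell in 1 bin pair with 39 read pairs against 16.1, the Rara contact of Ccr7 in 1 with 36 against 10.7, and the 3 upstream fragments of Cxcl17 in 1 with 21 against 5.38. None of the Cxcl12, Cxcl16, Ccl3 or Cxcl14 interactions fell in such a bin pair.

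Other genes of the chemokine system were counted from a list of older chemokine names, atypical receptors and signalling genes, with older and newer names of a gene counted once. As background, 61.0% (GM12878) and 60.1% (mESCs) of protein-coding gene names in the annotation were listed with an interaction, a share that misses renamed genes. Of 9 further chemokines, 2 had interactions in GM12878, namely IL8, the neutrophil ligand whose newer name CXCL8 falls under the symbol rule, with 1, and PF4, platelet factor 4, with 4. None of the names on that list was listed in mESCs. Which of these human names also name a mouse gene was not checked, so the mESC background does not apply to them. Of 8 atypical and related receptors, 4 had interactions in GM12878 (10 in all, 6 of them of GPR183, an oxysterol receptor that positions B cells). In mESCs, where Cxcr7 is already a member, 6 of the remaining 7 had 14 in all. Of 32 signalling genes, 23 had 266 interactions in GM12878 and 29 had 162 in mESCs. In GM12878 these were led by PLCB2, a phospholipase (31), GRK6, a receptor kinase (29), and RGS14, RGS16 and TIAM1 (23 each), where the RGS proteins shorten G protein signalling. RGS1, known for restraining B cell migration, had 22 in GM12878 and 1 in mESCs, and TIAM1 had 23 and 1. In mESCs, ARRB2, the gene of beta-arrestin 2, led with 20, followed by GRK6 and PLCB3 with 16 each.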

How the data were processed

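Promoter CHi-C calls of GM12878 (3 replicates) and mESCs (2 replicates) and mESC Hi-C (1 library) were used as deposited. The authors mapped read pairs with HiCUP to hg19 or mm9 and ran CHiCAGO on all replicates of a cell type together. The submitters' processing notes name Bowtie 1.1.0 and HOMER 4.7. The deposited score is the CHiCAGO score, a thresholded negative log of a weighted p-value, of at least 5, and the deposited read value is a mean over replicates that the authors weighted and rounded, so it is not a raw count. For Hi-C, the authors deposited the count of read pairs per 25-kb bin pair, the signal that HOMER expected and an adjusted p-value (FDR).

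Symbols were split at semicolons, bars and commas, since the mESC list uses the latter 2, and transcript suffixes were removed. Distances join fragment midpoints. All 301 human and 179 mouse fragments of the members had HindIII sites at both ends in the reference genome. Fragments were annotated with protein-coding genes of GENCODE (v44lift37 for hg19, vM1 for mm9), in the order transcription start, exon, intron. Shares have Wilson 95% intervals and medians order-statistic intervals. A count of 0 was given the limit of 3 counts. The script was tested on a simulated list. Python 3.11.15, pandas 2.3.3, numpy 2.4.6, scipy 1.17.1 and matplotlib 3.10.9 were used. A further 6 value columns of the 25-kb Hi-C list and the 1-Mb Hi-C list were not used.

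The members and gene lists were chosen with earlier results of these data known. Genes were named where they belonged to a cluster of at least 3 baits, were among the 5 ligands or 5 receptors with most interactions, gave 1 of the 5 highest scores or read counts, or were fixed homing genes. In GM12878, CCR8, CCL8, CCL27, CXCL1, CXCL14, CXCL16 and CXCL17, and in mESCs, Cx3cr1, Ccl24 and Ccl26, fall outside that rule and were named after their values were seen, as were the genes listed at shared fragments. Alternatives were a score of at least 10, at least 10 reads, baits with chemokine symbols alone, the browser list that gives each pair once, other Hi-C thresholds and cluster gaps of 250 kb and 1 Mb. The results of 1 receptor gene, and of 1 gene at called fragments, are not reported here by name, but both are in the counts over all members.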

Additional observations from a re-analysis of the deposited data

How the results depend on the processing

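Of the alternative settings, 35 values stayed within the intervals or within 1.5 times of those reported and 15 moved. At a score of at least 10, the interactions numbered 40 in GM12878 and 24 in mESCs, the bait-to-bait share was 20.0% and 45.8%, the median distance was 119 kb and 77.0 kb, the pairs of chemokine promoters were 2 and 2, the matched genes with more interactions in GM12878 were 1, and the share in Hi-C bin pairs was 20.8%. With at least 10 reads the median distance was 132 kb in GM12878 and 80.7 kb in mESCs. The share in Hi-C bin pairs was 6.79% at an FDR under 0.01 and 21.6% with every listed pair. Splitting symbols at the semicolon alone, an alternative chosen after seeing the data, left 103 mESC interactions. The cause of these changes was not tested, apart from the smaller number of interactions that a stricter score leaves. No paired analysis was possible because the calls were made on pooled replicates, and for the same reason no replicate could be left out. Low read counts limit the single interactions named, since the median interaction rested on 15.5 reads in GM12878 and 13 in mESCs.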
